A study of Mus musculus with 24 samples.

Results

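The genes described here are 10 heat shock protein genes of the cytosol and the mitochondria, chosen by name: Hspa8, Hspa4, Hsph1, Dnaja1, Dnajb1, Hsp90aa1, Hsp90ab1, Hspd1, Hspe1 and Hspb1. They are 10 of the 56941 gene IDs in the count tables, and the list was set with earlier results of these data known. Each was found by its symbol, and all 10 were among the 13281 genes with enough reads to be tested. Polyadenylated RNA was sequenced from a mouse line of adult hypothalamic cells, described in the series design as neuronal. The titles give 8 groups: high-glucose control (HGC), high glucose with dose label 1, 2 or 3 of mogroside V (HG1, HG2, HG3), normal-glucose control (NGC), and normal glucose with the same dose labels (NG1, NG2, NG3). Mogroside V is a sweet-tasting glycoside from monk fruit. The design text names doses of 15, 60 and 160 µM, and no label ties a dose number to one of them. C was read as the control without mogroside V. The glucose concentrations, the exposure time, and the strain and clone of the line are not given in the sources used here. HG2 replicate 3 and HG3 replicate 2 held the same values on all 56946 lines, so both were left out, which leaves 22 libraries: 2 each in HG2 and HG3 and 3 in each other group. The labels do not say whether the libraries of a group are separate cultures, and the p-values then measure only the spread between these libraries, which may be technical.

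Heat shock proteins are molecular chaperones: they bind unfolded or partly folded proteins and help them fold, assemble or be degraded. HSP70 proteins work in cycles of ATP hydrolysis that J-domain proteins start and nucleotide exchange factors end. HSP90 receives clients from HSP70 and matures them, among them steroid receptors and kinases. In mitochondria the HSP60 ring and its HSP10 lid enclose imported proteins. The transcription factor HSF1 switches on many of these genes when proteins misfold, and the constitutive members are also among the abundant transcripts of unstressed cells.

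Gene counts in the 22 libraries ranged from 3396249 to 7773074. Levels are given as CPM, read counts relative to the library's total after scaling by the TMM method. Levels and sums of the cell type markers are CPM of the plain library total, without that scaling. A gene was called at an adjusted p under 0.05 in edgeR's quasi-likelihood test, adjusted over all 13281 genes. NG3 replicate 3 and HGC replicate 2 stood apart from the other libraries on the first principal components. Without them, the number of the 10 genes called was the same in each of the 12 comparisons made. The neuronal description was checked against 13 neuron markers, of which 6 had enough reads to be tested. Elavl4 was at 0 in all libraries, Snap25 reached at most 0.51 CPM and Rbfox3 at most 1.09 CPM, whereas Map2 averaged 47.5 CPM and Tubb3 58.8 CPM. The 13 neuron markers together came to between 118 and 139 CPM in high-glucose libraries and between 126 and 167 CPM in normal-glucose libraries. The 9 fibroblast and pericyte markers came to between 5055 and 6279 CPM in high-glucose libraries and between 3961 and 6165 CPM in normal-glucose libraries.

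All 10 genes were well expressed, from the HSP90 gene Hsp90ab1 at 4396 CPM on average over the 22 libraries to Dnajb1 at 91.0 CPM. Only 0.08% of the tested genes had a higher level than Hsp90ab1, the constitutive cytosolic HSP90, and 0.67% a higher level than Hsp90aa1, the more stress-responsive form, at 909 CPM. Hspa8, the constitutive cytosolic HSP70, averaged 458 CPM. Hspa4, an HSP110-type nucleotide exchange factor, averaged 316 CPM, and Hsph1, another HSP110 protein, 91.4 CPM. Among the J-domain co-chaperones Dnaja1 averaged 103 CPM. The mitochondrial pair, Hspd1 (HSP60) and Hspe1 (HSP10), averaged 296 and 247 CPM, and the small heat shock protein Hspb1, which holds unfolded proteins without using ATP, 121 CPM. Per kilobase of the longest principal transcript, the order of mean levels changed: Hsp90ab1 led at 1744 CPM per kb, before Hspe1 at 319, Hsp90aa1 at 277, Hspa8 at 191, Hspb1 at 134 and Hspd1 at 122 CPM per kb. Hspa4 followed at 68.4, Dnajb1 at 30.4, Hsph1 at 24.0 and Dnaja1 at 18.3 CPM per kb.

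**Figure D1:**
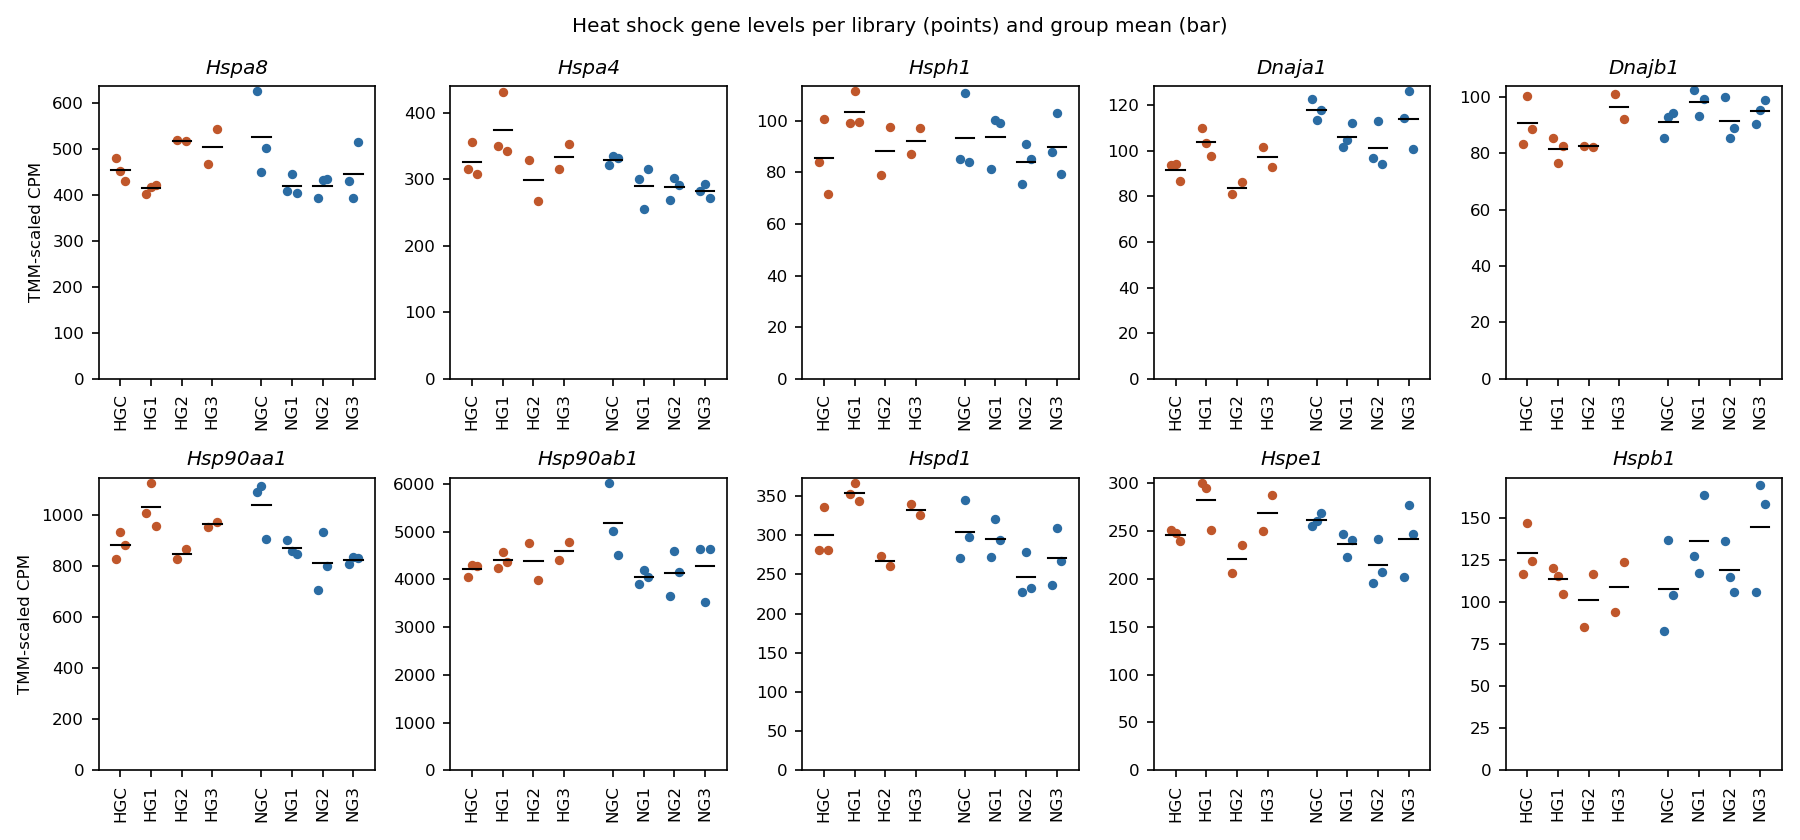
TMM-scaled CPM of the 10 heat shock genes in each of 22 libraries (points, orange for high and blue for normal glucose) and the group mean (bar), 1 panel per gene with its own axis from 0. Group means differ little within a panel: the highest is between 1.20 times (Dnajb1) and 1.44 times (Hspd1) the lowest.

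The levels of these genes varied little. Within groups, the standard deviation on the log2 scale was 0.09 for Dnajb1, 0.10 for Dnaja1 and between 0.12 and 0.18 for the other genes except Hspb1, which had 0.26. For Dnajb1, 99.0% of the tested genes had a larger within-group spread, and for Hspb1 53.3%. The highest group mean was 1.44 times the lowest for Hspd1, with 354 CPM in HG1 and 246 CPM in NG2, and 1.43 times for Hspb1, with 101 CPM in HG2 and 145 CPM in NG3. For Dnaja1 it was 1.41 times, with 83.7 CPM in HG2 and 118 CPM in NGC. When the 8 groups of each gene were ordered by mean, most neighbours overlapped. The neighbours that did not overlap were HG2 and HGC for Dnaja1 and for Dnajb1, HG3 and HGC for Hsp90aa1, HG1 and HG3 for Hspd1, and HGC and NGC for Hspe1. NGC had the highest mean of all groups for 4 genes, Hspa8, Dnaja1, Hsp90aa1 and Hsp90ab1, and HG1 for another 4, Hspa4, Hsph1, Hspd1 and Hspe1.

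In normal glucose at dose label 2, no heat shock gene was called against NGC (n = 3 each). Of the 10 genes, 8 had lower means in NG2, and 5 of these had an unadjusted p under 0.05: both HSP90 genes, Hspa8, Hspd1 and Hspe1. Across all tested genes 6.46% had an unadjusted p under 0.05 and 0.00753% were called, which is 1 gene. The 10 genes and the comparisons were chosen with earlier results of these data known. Counts of the 10 genes beside shares of all genes, here and below, are therefore descriptions and no test. DESeq2 called 1 of the 10 genes, Hsp90aa1, at an adjusted p of 0.0423, and 35 of all genes, which is 0.587% of those left by its own filter on low means. The median log2 difference of the 10 genes was -0.25 against 0.01 for all tested genes. In bulk RNA, fewer cells of a type and less RNA per cell cannot be told apart.

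Hsp90aa1 had 706, 933 and 799.8 CPM in the NG2 libraries, against 1091, 1115 and 907 CPM in the NGC libraries. The highest NG2 library lay above the lowest NGC library, so the groups overlapped. The log2 difference was -0.35 ± 0.10 (SE), a fold of 0.783, with an adjusted p of 0.347 in edgeR's test. Hsp90ab1 had 3647, 4599.9 and 4147 CPM in NG2 libraries, against 6013, 5015 and 4503 CPM in NGC libraries. These groups overlapped as well, with NGC replicate 1 far above the rest, and the log2 difference was -0.33 ± 0.11 with an adjusted p of 0.529 (edgeR). Hspa8, the HSP70 that hands clients to HSP90, had 393, 431 and 434 CPM in NG2 libraries, against 624, 448 and 501 CPM in NGC libraries. All 3 NG2 libraries lay below all 3 NGC libraries, and the log2 difference was -0.33 ± 0.11 with an adjusted p of 0.552 (edgeR). NGC replicate 1 was the highest of all 22 libraries for both Hspa8 and Hsp90ab1. Without it, the log2 difference was -0.18 for Hspa8 and -0.20 for Hsp90ab1, and -0.32 for Hsp90aa1. With each library left out in turn, the log2 difference of Hsp90aa1 ran from -0.47 to -0.26. NG2 replicate 1, the library with the most gene counts (7773074), was the lowest of all 22 libraries for Hsp90aa1, Hspd1 and Hspe1.

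The mitochondrial pair was lowest in NG2 of all groups, as were the cytosolic Hsp90aa1 and Hsph1. Hspd1 had 227, 279 and 233 CPM in NG2 libraries, against 271, 345 and 298 CPM in NGC libraries. The groups overlapped by a single NG2 library, and the log2 difference was -0.31 ± 0.11 with an adjusted p of 0.585 (edgeR). Hspe1 had 196, 241 and 207 CPM in NG2 libraries, against 255, 261 and 268 CPM in NGC libraries. Here no NG2 library reached the NGC range, and the log2 difference was -0.29 ± 0.11 with an adjusted p of 0.627 (edgeR). With each library left out in turn, the log2 difference ran from -0.41 to -0.21 for Hspd1 and from -0.38 to -0.22 for Hspe1. Of the genes of the HSP70 cycle, Hspa4 had 269.6, 303 and 292 CPM in NG2 libraries, against 322, 335 and 333 CPM in NGC libraries, without overlap (log2 difference -0.20 ± 0.11, adjusted p = 0.818, edgeR). Dnaja1 had 96.7, 113 and 94.4 CPM in NG2 libraries, against 123, 114 and 118 CPM in NGC libraries, also without overlap (log2 difference -0.22 ± 0.12, adjusted p = 0.795, edgeR). In all, 4 of the 10 genes were lower in every NG2 library than in any NGC library, Hspa8, Hspa4, Dnaja1 and Hspe1, against 6.16% of the tested genes. In NG1 against NGC, these 4 and both HSP90 genes were lower without overlap, so the trait is not particular to dose label 2. The share of all tested genes without overlap was counted only for NG2 against NGC. Separations in other comparisons are given as values only. Hsph1 averaged 83.9 ± 7.72 CPM in NG2 and 93.4 ± 15.2 CPM in NGC (SD, n = 3 each). Dnajb1 averaged 91.4 ± 7.45 CPM in NG2 and 90.9 ± 4.68 CPM in NGC, and Hspb1 119 ± 15.8 CPM in NG2 and 108 ± 27.2 CPM in NGC. These last genes had unadjusted p-values of 0.262 (Hsph1), 0.91 (Dnajb1) and 0.429 (Hspb1) in edgeR's test. Summed over the 10 genes, NG2 libraries held between 5847 and 7190.4 CPM and NGC libraries between 7210.0 and 8953 CPM, and Hsp90ab1 made up the greater part of these sums.

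The fibroblast and pericyte markers moved with the same comparison: their sum was between 5664 and 6165 CPM in NG2 libraries and between 5043 and 5350 CPM in NGC libraries, and all 7 tested markers had higher means in NG2, none of them called. Col3a1, a fibrillar collagen, had a log2 difference of 0.46 ± 0.10 (adjusted p = 0.17, edgeR). The neuron marker sum was between 153 and 157 CPM in NG2 libraries and between 131 and 139 CPM in NGC libraries. Of the 6 tested neuron markers, however, 3 had a positive and 3 a negative log2 difference, with a median of 0.08 and none called. The part of these markers in the heat shock gene differences was not tested.

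**Figure D2:**
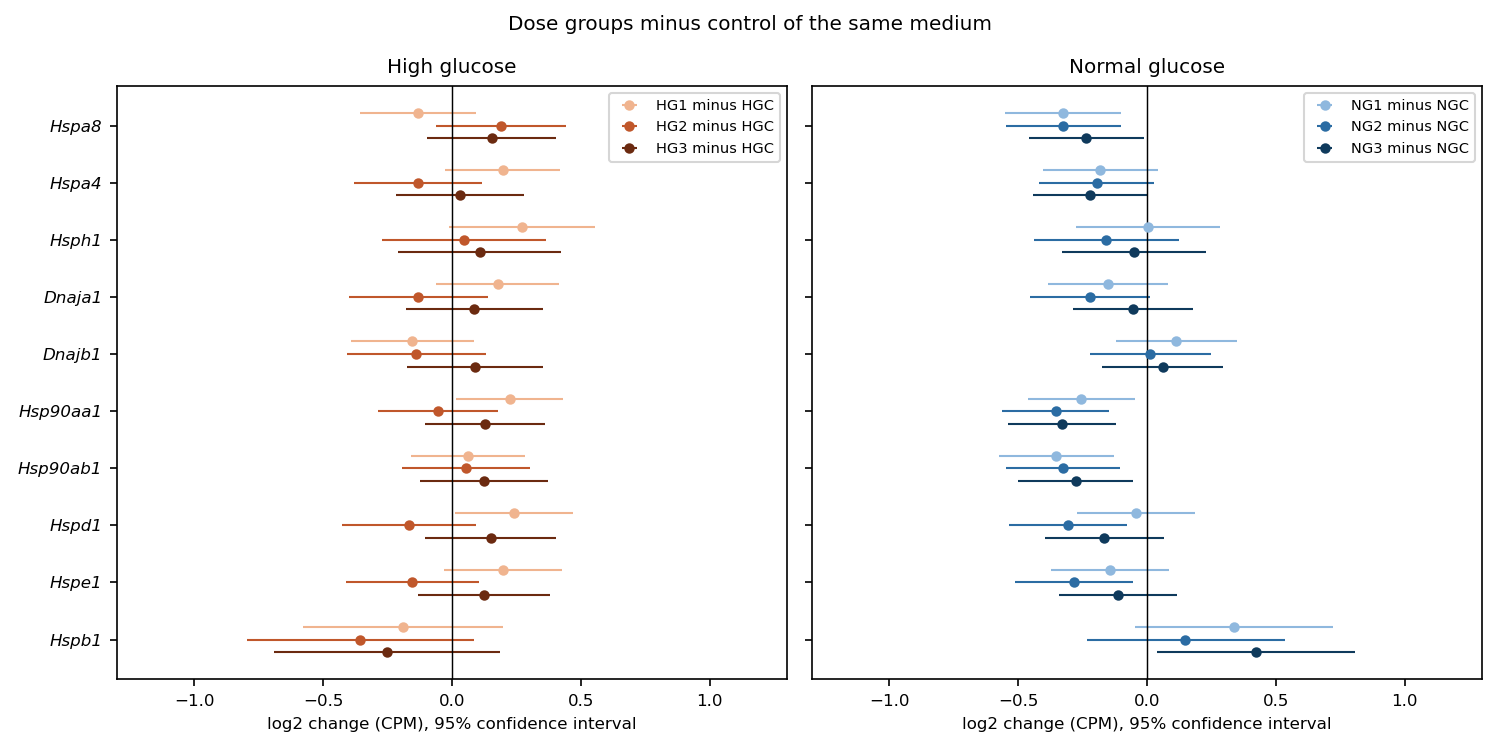
Log2 change in CPM (points) with its 95% confidence interval (lines) for the 10 heat shock genes at dose labels 1, 2 and 3 against the control of the same medium, high glucose on the left and normal glucose on the right. In normal glucose the intervals of Hspa8, Hsp90aa1 and Hsp90ab1 lie below 0 at all 3 dose labels, which share the same 3 control libraries; none of these changes passed the adjusted threshold in edgeR's test.

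For Hspa8, Hspa4 and both HSP90 genes, the other dose labels in normal glucose gave log2 differences near those of NG2. All 3 comparisons share the NGC libraries, so this likeness is no independent evidence. Other genes differed more: Hspd1 had -0.04 in NG1 and -0.17 in NG3, against -0.31 in NG2. The median log2 difference of the 10 genes was -0.15 in NG1 and -0.14 in NG3, against -0.25 in NG2. In NG1 against NGC, edgeR and DESeq2 each called 0 of the 10 genes, as of all tested genes 0% were called by edgeR. In this comparison 3 of the 10 genes had an unadjusted p under 0.05, against 4.88% of all genes. These were Hsp90ab1 at a log2 difference of -0.35 ± 0.11, Hspa8 at -0.33 ± 0.11 and Hsp90aa1 at -0.26 ± 0.10, with adjusted p-values of 0.902, 0.902 and 0.962 (edgeR). Without NGC replicate 1, the log2 difference in NG1 was -0.23 for Hsp90ab1 and -0.18 for Hspa8. In NG3 against NGC edgeR called 0 of the 10 genes and 0.128% of all genes, and 4 of the 10 had an unadjusted p under 0.05, against 10.4% of all genes. Hsp90aa1 had 808, 835 and 832 CPM in NG3 libraries, against 1091, 1115 and 907 CPM in NGC libraries. All NG3 libraries lay below all NGC libraries, and the log2 difference was -0.33 ± 0.10 with an adjusted p of 0.181 in edgeR and 0.0259 in DESeq2. DESeq2 called this 1 gene of the 10, and 4.3% of all genes left by its filter. Hsp90ab1 (log2 difference -0.28 ± 0.11) and Hspa8 (-0.24 ± 0.11) were the other genes with lower means at that level. Without NGC replicate 1 these values were -0.16 for Hsp90ab1 and -0.09 for Hspa8, and without NG3 replicate 2 they were -0.16 for both. Hspb1 went the other way, with 106, 169.7 and 158 CPM in NG3 libraries, against 83.0, 137 and 104 CPM in NGC libraries. Its groups overlapped, and the log2 difference was 0.42 ± 0.19 (adjusted p = 0.427, edgeR), or 0.26 without NGC replicate 1. Without NG3 replicate 3, the library that stood apart, no count of called heat shock genes in these normal-glucose comparisons changed.

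With the 3 doses pooled against NGC (9 and 3 libraries), edgeR called 0 of the 10 genes and 0% of all genes, while 4 of the 10 and 8.43% of all genes had an unadjusted p under 0.05. Hsp90aa1 averaged 836 ± 64.7 CPM in treated libraries and 1038 ± 114 CPM in NGC libraries (SD). The log2 difference was -0.31 ± 0.08, with an adjusted p of 0.153 in edgeR and 0.0123 in DESeq2. Hsp90ab1 averaged 4153 ± 419 CPM in treated libraries and 5177 ± 768 CPM in NGC libraries, with a log2 difference of -0.32 ± 0.09 and adjusted p-values of 0.175 in edgeR and 0.0306 in DESeq2. Hspa8 averaged 428 ± 37.6 CPM in treated libraries and 524 ± 90.4 CPM in NGC libraries. Its log2 difference was -0.30 ± 0.09, with adjusted p-values of 0.23 in edgeR and 0.0429 in DESeq2, so DESeq2 called these 3 of the 10 genes, and 2.65% of all genes left by its filter. Without NGC replicate 1 the log2 difference was -0.28 for Hsp90aa1, -0.20 for Hsp90ab1 and -0.15 for Hspa8. Hspa4 had a log2 difference of -0.20 ± 0.09 (adjusted p = 0.525, edgeR) and did not overlap between treated and NGC libraries. Set against NG1 and NG3 together (6 libraries), NG2 differed in 0 of the 10 genes by edgeR and by DESeq2, as in 0% of all genes by edgeR. Only Hspd1 had an unadjusted p under 0.05 there: it averaged 246 ± 28.1 CPM in NG2 and 284 ± 30.6 CPM in NG1 and NG3, a log2 difference of -0.20 ± 0.10 (adjusted p = 0.997, edgeR). For Hsp90aa1 the 95% interval of this log2 difference ran from -0.24 to 0.12, and for Hspa8 from -0.24 to 0.15.

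In high glucose no heat shock gene was called at any dose label against HGC, by edgeR or by DESeq2. Of the 10 genes, 7 had higher means than HGC in HG1, 3 in HG2, 9 in HG3 and 8 in the pooled dose groups, and these comparisons share the HGC libraries. In HG1 edgeR called 0% of all genes, and 2 of the 10 heat shock genes and 7.78% of all genes had an unadjusted p under 0.05. Hsp90aa1 had 1008, 1126 and 957 CPM in HG1 libraries, against 828, 935 and 883 CPM in HGC libraries. The groups did not overlap, and the log2 difference was 0.22 ± 0.10 (adjusted p = 0.633, edgeR). Hspd1 had 352, 367 and 344 CPM in HG1 libraries, against 282, 337 and 281 CPM in HGC libraries. These did not overlap either, with a log2 difference of 0.24 ± 0.11 (adjusted p = 0.634, edgeR). Dnaja1 and Hspe1 were also higher without overlap in HG1, and Hspa8 was lower without overlap. The share of all tested genes without overlap between HG1 and HGC was not counted, so nothing is read from these separations. In HG2, HG3 and the 3 doses together edgeR called 0% of all genes in each comparison, and none of the 10 heat shock genes had an unadjusted p under 0.05. The median log2 difference of the 10 genes was 0.19 in HG1, -0.13 in HG2 and 0.12 in HG3, against values between -0.004 and -0.001 for all tested genes. At dose label 2, Hspa8 had 519 and 515 CPM in HG2 libraries, against 479, 450.4 and 431 CPM in HGC libraries, a log2 difference of 0.19 ± 0.12. Both HG2 libraries lay above all HGC libraries, while the NG2 libraries of this gene lay below those of NGC. Both HG2 libraries lay below all HGC libraries for Dnaja1 (log2 difference -0.13), Dnajb1 (-0.14), Hspd1 (-0.17) and Hspe1 (-0.15). Of these genes, Dnaja1 and Hspe1 were also lower without overlap in NG2 against NGC. The share of all tested genes without overlap between HG2 and HGC was not counted, so nothing is read from this.

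Whether dose label 2 acted differently in the 2 media was tested as the difference of its log2 changes, high glucose minus normal glucose. By edgeR and by DESeq2 0 of the 10 genes were called, and by edgeR 0% of all genes. In edgeR's test 2 of the 10 heat shock genes had an unadjusted p under 0.05, against 6.38% of all genes. Hspa8 had a difference of 0.52 ± 0.17 on the log2 scale (adjusted p = 0.582) and Hsp90ab1 of 0.38 ± 0.16 (adjusted p = 0.73). With the identical library counted once, in HG2, the difference for Hspa8 was 0.47 (adjusted p = 0.38) and for Hsp90ab1 0.43 (adjusted p = 0.453). The 95% interval of the difference ran from 0.18 to 0.85 for Hspa8 and from -0.21 to 0.48 for Hspd1.

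Between the media, the J-domain protein Dnaja1, which delivers clients to HSP70 and starts its ATP hydrolysis, was the one heat shock gene called by edgeR. It fell in high glucose: over the 10 high-glucose libraries its level had a lowest value of 80.9, a median of 93.9 and a highest value of 110.1 CPM, against 94.4, 113 and 126 CPM over the 12 normal-glucose libraries. The ranges overlapped, and the means were 94.8 ± 8.77 CPM in high glucose and 110 ± 10.1 CPM in normal glucose (SD). The log2 difference, with each group of a medium weighted equally, was -0.225 ± 0.062, a fold of 0.855 (adjusted p = 0.0139, edgeR). In this comparison 10.1% of all tested genes were called and 4.38% were called lower, so 1 of 10 is near the share among all genes. The call was lost without HG2 replicate 1 (adjusted p = 0.0587), without HG3 replicate 3 (0.0584) and with the identical library counted once, in HG2 (0.053), always in edgeR's test. In the controls alone, Dnaja1 had 93.5, 94.3 and 86.9 CPM in HGC libraries, against 123, 114 and 118 CPM in NGC libraries. These groups did not overlap, and the log2 difference was -0.37 ± 0.12 with an adjusted p of 0.0979 in edgeR and 0.0305 in DESeq2, which called 3.76% of all genes left by its filter. Its annotated exons share 608 bases with those of Smu1, a splicing factor gene on the opposite strand, and no source used here says whether the counting used strand, so reads of the 2 genes there may not have been told apart. Smu1 itself averaged 51.6 ± 9.85 CPM in high glucose and 54.5 ± 8.47 CPM in normal glucose, a log2 difference of -0.09 ± 0.10 (adjusted p = 0.666, edgeR). With the counts of its 3 near-identical pseudogenes added, Dnaja1 had a log2 difference of -0.23 (adjusted p = 0.0134, edgeR).

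Of the other 9 genes, Hspa4 and Hspd1 came closest to the threshold between the media. In edgeR's test 3 of the 10 genes had an unadjusted p under 0.05, against 22.7% of all genes. Hspa4 had a lowest value of 268, a median of 336 and a highest value of 432 CPM in high glucose, against 256, 297 and 335 CPM in normal glucose, with a log2 difference of 0.16 ± 0.06 (adjusted p = 0.0703, edgeR). DESeq2 called it, at 0.0338, and 11.6% of all genes left by its filter. Hspd1 had 260.2, 331 and 367 CPM as lowest, median and highest value in high glucose, against 227, 276 and 345 CPM in normal glucose, with a log2 difference of 0.16 ± 0.06 (adjusted p = 0.0803, edgeR). The ranges of both genes overlapped widely. Hsp90ab1 did not separate the media: its means were 4380 ± 267 CPM in high glucose and 4409 ± 670 CPM in normal glucose, with a 95% interval of the log2 difference from -0.12 to 0.12. Between the controls alone, however, 9 of the 10 genes had lower means in HGC than in NGC, with a median log2 difference of -0.11 against -0.01 for all genes. None was called by edgeR, which called 2.28% of all genes there, and 3 of the 10 had an unadjusted p under 0.05, against 11.9% of all genes. Beside Dnaja1 these were Hsp90ab1 with 4061, 4299 and 4282 CPM in HGC libraries, against 6013, 5015 and 4503 CPM in NGC libraries (log2 difference -0.30 ± 0.11, adjusted p = 0.19, edgeR), and Hsp90aa1 (-0.24 ± 0.10, adjusted p = 0.318, edgeR). For Hsp90ab1 no HGC library reached the NGC range, and without NGC replicate 1 the log2 difference was -0.18. The fibroblast marker Postn, a matrix protein, moved with the medium and was higher by 0.69 ± 0.08 in high glucose (adjusted p = 1.18e-08, edgeR), and the neuron marker Map2, a microtubule protein, lower, with a log2 difference of -0.395 ± 0.082 (adjusted p = 0.000853, edgeR). Of the 6 tested neuron markers, Map2 among them, 3 had a positive and 3 a negative log2 difference between the media, with a median of -0.002. The other cell type markers called between the media were Col1a1 (log2 difference 0.23), Csf1r (0.88) and Sox9 (-0.21), and between the controls alone Pdgfrb (0.40) and Postn (0.81). Of the 2 tested microglia markers, Csf1r among them, 1 had a positive and 1 a negative log2 difference between the media. The part of these markers in the Dnaja1 difference was not tested.

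The other genes of the chaperone system were followed as 10 lists. At dose label 2 in normal glucose none of their members was called. Lower means prevailed in several lists: 13 of 14 chaperonin and prefoldin genes, which fold actin and tubulin, had lower means in NG2 (median log2 difference -0.15), as had 11 of 13 HSP90 co-chaperones (-0.14), 27 of 31 proteasome subunits (-0.12) and 10 of 13 tested mitochondrial chaperones and proteases (-0.10). Over all tested genes 6491 of 13281 had lower means. The lowest adjusted p among these lists was that of the prefoldin subunit Pfdn1, with 208 ± 7.59 CPM in NG2 and 253 ± 12.8 CPM in NGC (SD, n = 3 each; log2 difference -0.29 ± 0.10, adjusted p = 0.566, edgeR). The proteasome lid subunit Psmd7 (-0.29 ± 0.11), the HSP90 co-chaperone Chordc1 (-0.32 ± 0.12) and the J-domain protein Dnajc2 (-0.40 ± 0.15), which acts at the ribosome, followed at an adjusted p of 0.582 each (edgeR). The proteasome subunits Psma4 (-0.31 ± 0.12) and Psmd1 (-0.28 ± 0.12) had adjusted p-values of 0.594 and 0.658 (edgeR), and Cct7, a subunit of the cytosolic chaperonin, -0.24 ± 0.10 and 0.662. The 3 tested genes of the heat shock factor list, Hsf1, Hsf2 and the factor-binding protein gene Hsbp1, lay close to their control levels. Hsf1, the main stress-activated factor, averaged 38.9 CPM in NG2 and 41.7 CPM in NGC, a log2 difference of -0.11 ± 0.16. The stress-inducible HSP70 gene Hspa1b averaged 61.6 CPM in NG2 and 54.4 CPM in NGC, a log2 difference of 0.18 ± 0.16 (adjusted p = 0.93, edgeR), and its near-identical neighbour Hspa1a 9.85 CPM in NG2 and 8.18 CPM in NGC. Reads of these 2 genes can be assigned to either or discarded, so both values are uncertain. Among the small heat shock proteins, Cryab averaged 268 ± 28.9 CPM in NG2 and 212 ± 28.1 CPM in NGC, a log2 difference of 0.34 ± 0.13 (adjusted p = 0.605, edgeR). In NG3, Pfdn1 fell to 177 ± 17.8 CPM, against 253 ± 12.8 CPM in NGC, and was the one chaperone gene of these lists called at any dose label (log2 difference -0.52 ± 0.10, adjusted p = 0.0445, edgeR).

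Between the media the calls lay mostly outside the 10 heat shock genes. Of all tested genes 5.71% were called higher and 4.38% lower in high glucose, and list counts of 1 or 2 genes in one direction are given as values only, with nothing read from them. Of 15 ER chaperone genes 7 rose in high glucose and none fell, with a median log2 difference of 0.24 against -0.01 for all genes. Hspa5, the HSP70 of the ER, averaged 2091 ± 156 CPM in high glucose and 1679 ± 104 CPM in normal glucose (log2 difference 0.31 ± 0.05, adjusted p = 3.08e-05, edgeR). The other ER genes that rose were Hsp90b1, Calr, Pdia3, Pdia4, Dnajb11 and Herpud1, with log2 differences between 0.18 (Hsp90b1) and 0.36 (Herpud1). Hspa9, the HSP70 of mitochondria, rose too, at 534 ± 32.6 CPM in high glucose and 458 ± 30.0 CPM in normal glucose (0.23 ± 0.05, adjusted p = 0.00159, edgeR), while the cytosolic Hspa8 averaged 464 ± 48.4 CPM in high glucose and 452 ± 66.6 CPM in normal glucose (0.06 ± 0.06, adjusted p = 0.574, edgeR). Hspa1b fell, at 47.7 ± 8.17 CPM in high glucose and 58.4 ± 7.50 CPM in normal glucose (-0.33 ± 0.09, adjusted p = 0.0108, edgeR), with the uncertainty named above. Among the J-domain proteins 2 of 11 tested rose, Dnajb6, which suppresses aggregation of polyglutamine proteins, by 0.38 ± 0.08 (adjusted p = 0.000507, edgeR) and Dnajc8 by 0.19 ± 0.06. Among the HSP70 cofactors 1 of 8 tested rose, St13 (0.25 ± 0.06), and of the HSP90 co-chaperones 1 of 13 fell, the immunophilin Fkbp5 (-0.24 ± 0.08). Of the chaperonin and prefoldin genes 1 of 14 rose, Pfdn1 (0.22 ± 0.06). Of 5 tested small heat shock protein genes 2 rose, Cryab (0.29 ± 0.07) and Hspb6 (0.33 ± 0.09), whereas Hspb1 averaged 115 ± 17.2 CPM in high glucose and 127 ± 26.8 CPM in normal glucose (-0.16 ± 0.10, adjusted p = 0.357, edgeR). Of 31 proteasome subunits 3 fell, Psma1 (-0.20 ± 0.06), Psmb2 (-0.31 ± 0.09) and Psmb3 (-0.23 ± 0.07), and 1 rose, Psmc1 (0.24 ± 0.06). Of the 3 tested genes of the heat shock factor list none was called, with Hsf1 at -0.24 ± 0.09 (adjusted p = 0.0799, edgeR). Between the controls alone 2 genes of the lists were called, Cryab (0.59 ± 0.13) and the ER stress gene Herpud1 (0.80 ± 0.15), both higher in HGC.

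**Figure D3:**
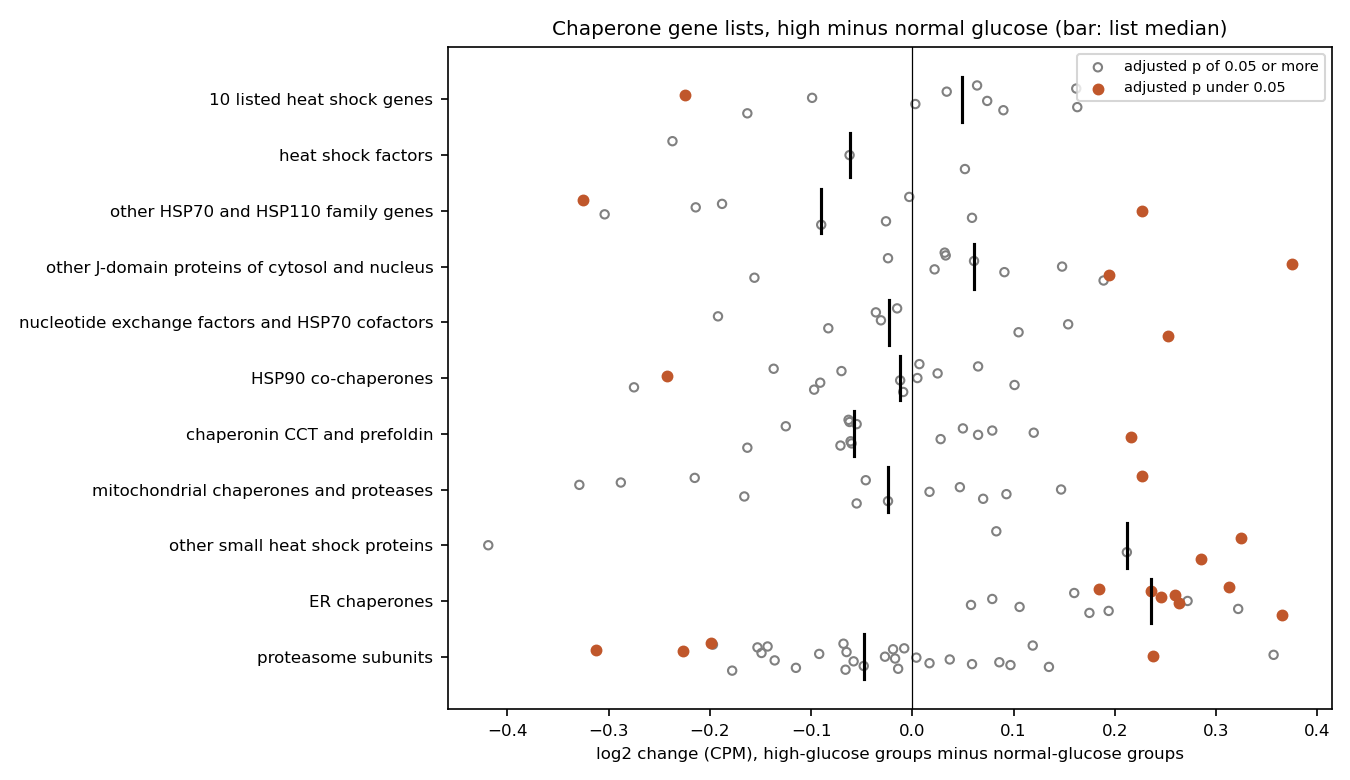
Log2 change in CPM, high-glucose minus normal-glucose groups, for each tested gene of the 10 heat shock genes and the 10 chaperone lists (filled: adjusted p under 0.05; open: 0.05 or more; bar: list median). Dnaja1 at -0.225 is the one filled point of the heat shock genes, and all 7 filled points of the ER chaperones lie to the right of 0; Hspa9 belongs to 2 lists and is drawn in both.

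Across the 22 libraries the heat shock genes did not vary as 1 block. Of 45 pairs, 12 had an adjusted p under 0.05 for Pearson's r on log2 CPM (two-sided permutation test with 100000 resamples, Benjamini-Hochberg adjustment over the 45 pairs), and 11 of these were positive. The libraries of a group share their treatment, and all share the scaling of library sizes. By Pearson's r over all libraries the mitochondrial pair, Hspd1 and Hspe1, was highest, with r = 0.77 (permutation p = 3e-05, adjusted p = 0.00135) and Spearman's rho = 0.745 (permutation p = 0.00013, adjusted p = 0.00195). Without the 2 libraries farthest from the Hspd1 median, r was 0.677 over 20 libraries. It was 0.736 within the 10 high-glucose libraries, 0.749 within the 12 normal-glucose libraries, and 0.478 for deviations from the group means. By Spearman's rho Hsp90aa1 and Hspe1 were higher (0.754), and for deviations from the group means Hsph1 and Hspd1 (r = 0.697), Hspa8 and Hsp90ab1 (0.663) and Hspe1 and Hspb1 (0.561) were. The cytosolic pair Hspa8 and Hsp90ab1 had r = 0.703 (permutation p = 0.00025, adjusted p = 0.00225) and rho = 0.599 (permutation p = 0.00385, adjusted p = 0.0217). Without the 2 libraries farthest from the Hspa8 median r was 0.47, and it was 0.227 within high glucose and 0.861 within normal glucose, so this relation rests largely on normal-glucose libraries. Hsp90aa1 correlated with Hspd1 at r = 0.728 (permutation p = 0.0001, adjusted p = 0.00225) and rho = 0.738 (permutation p = 0.00011, adjusted p = 0.00195), and without the 2 libraries farthest from the Hsp90aa1 median r was 0.598. Hsp90ab1 and Hspb1 ran in opposite directions, with r = -0.552 (permutation p = 0.00726, adjusted p = 0.0297) and rho = -0.426 (permutation p = 0.0479, adjusted p = 0.144). Without the 2 libraries farthest from the Hsp90ab1 median this r was -0.234, so its size depends on those libraries. For this pair r was -0.374 within high glucose, -0.631 within normal glucose and -0.489 for deviations from the group means.

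**Figure D4:**
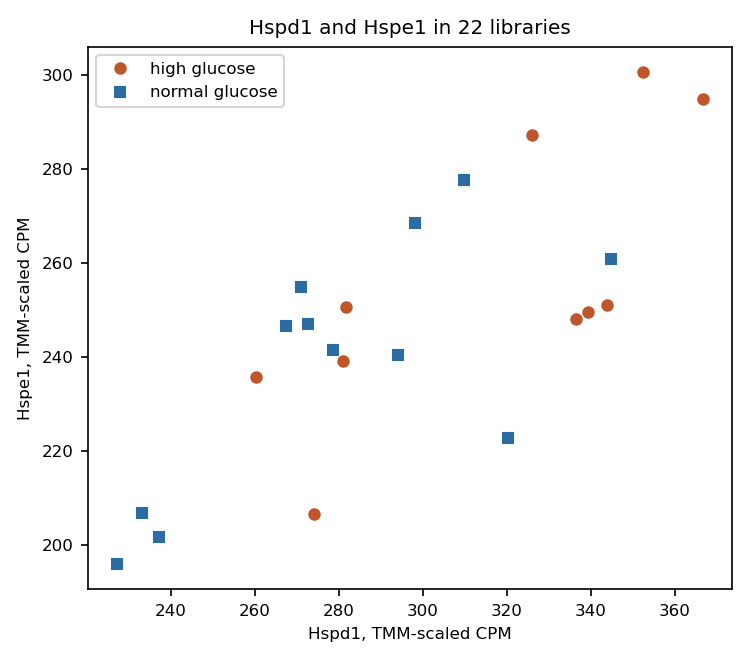
TMM-scaled CPM of Hspe1 against Hspd1 in 22 libraries (circles: high glucose; squares: normal glucose). Libraries with more Hspd1 hold more Hspe1 in both media, with r = 0.736 within high glucose and 0.749 within normal glucose.

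Hspd1 and Hspe1 lie head to head on chromosome 1, transcribed away from each other, and their annotated exons share 112 bases on opposite strands, so with unknown strandedness a part of their reads may not have been told apart. The promoter table used here (RefSeq, GRCm38.p6; 250 bases before each start) matched 7 of the 10 genes: Hspa4, Hsph1, Dnaja1, Dnajb1, Hspd1, Hspe1 and Hspb1. It was searched for the heat shock element, the inverted GAA and TTC units to which HSF1 binds, spelled GAANNTTC or TTCNNGAA for 2 units, GAANNTTCNNGAA or TTCNNGAANNTTC for 3 units, and the same alternation carried on for 4. These patterns read alike on both strands or as each other's complement, and the longer ones contain the shorter. The windows of Hspe1, Hsph1, Dnaja1 and Hspb1 that hold such letters are given in lower case with the units in capitals, since they show how the promoter shared by Hspd1 and Hspe1 differs from the others.
Hspe1: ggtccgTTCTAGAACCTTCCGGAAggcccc
Hsph1: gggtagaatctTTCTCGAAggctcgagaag
Dnaja1: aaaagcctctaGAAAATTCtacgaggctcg
Hspb1: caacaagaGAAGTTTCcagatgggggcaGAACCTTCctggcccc

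The Hspe1 window (chr1:55088053-55088082, plus strand, bases -95 to -66 from the start) holds 4 alternating units. The same bases, on the minus strand, lie in one of the 2 Hspd1 promoters of the table, so the pair shares this element. A run of 4 units is in 7 of 32851 promoters of the table (0.0213%), 3 units in 0.466% and 2 units in 12.8%. The Hspe1 promoter and that Hspd1 promoter, which hold the same bases, are both counted among these 7. The Hsph1 window (chr5:149636351-149636380, minus strand, -44 to -15) and the Dnaja1 window (chr4:40722333-40722362, plus strand, -135 to -106) hold 2 units each, a pattern common among all promoters. The Hspb1 window (chr5:135887794-135887837, plus strand, -125 to -82) holds 2 separate matches of 2 units. The windows of Hspa4 and Dnajb1 held none of these letters, which says only that they are not in these 250 bases. A match of letters is a description and no measure of binding.

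Over the 22 libraries, the genes outside the list whose log2 CPM was most like the mean standardized profile of the 10 were Tnfaip1 (r = 0.863) and Npm3 (0.847). Timm9 (0.808), Psma7 (0.807), Rpl12 (0.796), Brox (0.775), Rpl21 (0.774) and Eef1b2 (0.768) were also among the 10 highest of all tested genes. These values are a description over libraries that share groups and scaling. The mean profile itself was highest in NGC replicate 2 (0.87 standard deviations above the mean of the libraries) and lowest in NG2 replicate 1 (-1.01).

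Sequences near-identical to members exist elsewhere in the genome and may take or lose some of their reads. At 95% identity or more over at least 200 bases, 6 other genes matched Hspa8, 3 Hsp90aa1, 3 Dnaja1, 2 Hspb1 and 1 each Hspd1 and Hspe1, and none the other 4 genes. The counts listed for these copies came to 5.11% of the member's own counts for Hsp90aa1, 3.06% for Hspa8 and 2.15% for Hspe1, and to 1.27% or less for the others. With them added to the members, no count of called heat shock genes changed in any of the 12 comparisons.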

How the data were processed

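The authors deposited 1 table of raw counts per library, 24 in all, with whole-number read counts for 56941 gene IDs and 5 summary lines that were left out. Per the submitters' processing notes, the tools were STAR 2.7.5c, HTSeq 1.99.2, FastQC 0.11.9 and DESeq2 3.16, with the build GRCm39, and per the labels' protocols RNA was taken with a DNase step and made into libraries with a VAHTS Universal V8 kit. Reads without a feature were 14.4 to 20.6% and reads aligned to several places 16.5 to 18.9% of all counts with the summary lines, so genes with copies lose reads. The 22 kept libraries were analysed in R 4.3.3 with edgeR 4.0.16 (filter by expression over the 8 groups, TMM factors of 0.965 to 1.068, robust quasi-likelihood F test, Benjamini-Hochberg adjustment over 13281 genes, 14 residual degrees of freedom). The standard error is the log2 change divided by the square root of F. The fit was tested on simulated data. The 10 genes, the lists and the comparisons were chosen with earlier results of these data known. Within each list the text gives counts and the median, up to 3 genes with the lowest p in NG2 against NGC, and called genes. Hspa1a was added after its values were seen. Alternatives were DESeq2 1.42.0, median-ratio (RLE) factors, no filter on low counts, fits on only the groups compared, a replicate block, each library left out, the identical library kept once, and the 2 libraries that stood apart left out. The addition of near-identical copies was chosen after seeing the data. Same-numbered libraries of different groups did not deviate together from their group means (median correlation 0 over 70 pairs, range -0.118 to 0.138), so the fit without a block is reported. The correlations were taken over the 2000 genes with the largest variance of log2 CPM over all 22 libraries. Annotation and promoters came from GENCODE M21 and RefSeq tables of GRCm38, which differs from the files' build. Some genes of the likeness ranking are not reported here.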

Additional observations from a re-analysis of the deposited data

How the results depend on the processing

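Of the 27 log2 changes of heat shock genes with an unadjusted p under 0.05, 0 changed sign under any alternative run, and of the other 93, 27 did, the largest of them 0.149 in size. DESeq2 moved the number of heat shock genes called to 1 in NG2 against NGC, 1 in NG3 against NGC, 3 in the treated libraries against NGC, 1 in HGC against NGC and 2 in high against normal glucose, and the number of all genes called in NG2 against NGC to 35. DESeq2 called 167, 103, 380 and 1359 of all genes in the other 4 of these comparisons, in the same order. Without the filter on low counts 2 heat shock genes were called in the treated libraries against NGC, Hsp90aa1 and Hsp90ab1, and 21 genes in all in NG2 against NGC. That last count was 17 without NG3 replicate 3 and HGC replicate 2, 2 with only the groups compared, and between 0 and 1 with each library left out. The number called in high against normal glucose was 2 with the identical library once, in HG2 (Hspa4 and Hspd1), and 2 with it in HG3 (Dnaja1 and Hspa4). With each library left out it was between 0 and 3. The replicate block gave 2, with Hspd1 added at an adjusted p of 0.0282, and moved no other count of heat shock genes. The cause of these moves was not tested. Groups hold 2 or 3 libraries. In NG2 against NGC the median standard error was 0.11 on the log2 scale for the 10 genes and 0.23 for all tested genes. A given log2 difference therefore tended to give a lower unadjusted p in the 10 genes, which limits the comparison of their shares with those of all genes. For the 10 genes, changes of 0.11 or smaller are not resolved here, and changes well above it were not called by edgeR either. The largest of the 10 genes in that comparison, Hsp90aa1 at a log2 difference of -0.354, had an adjusted p of 0.347 in edgeR's test.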
